A study of Homo sapiens with 18 samples.

Results

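The 10 genes described here control the passage of a cell from G1 into S phase. They are the cyclin-dependent kinase (CDK) inhibitors CDKN1A, CDKN1B, CDKN2C and CDKN2D, the D-type cyclins CCND2 and CCND3, the kinases CDK4 and CDK6, the retinoblastoma gene RB1 and the transcription factor gene E2F1. They were taken by symbol from the gene count table, 10 of the 60707 genes read from it. A filter on low counts left 9 of them among the 16474 genes tested, and CCND2 did not pass it.

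The libraries come from Raji, a human Burkitt lymphoma B cell line labelled Smarca4+/+, in which the study set up an auxin-inducible degron for SMARCA4 (BRG1). SMARCA4 is an ATPase of the BAF chromatin remodelling complex, and auxin directs a degron-tagged protein to the proteasome. Cells of high and of low GFP at 24, 48 and 72 h made 6 groups of 3 libraries, 18 in all: 3 times of GFP high and the same 3 times of GFP low. All groups share the Raji line, its genotype label and the degron system. The sources used here do not state the meaning of GFP level, the way cells of each level were collected, the event at hour 0, any dose of auxin or whether the line is 1 clone, although column names in 1 of the sets write GFP together with BRG1. Nothing in the labels marks the 3 libraries of a group as separate cultures, and p-values then measure only their spread, which may be technical.

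As background, D-type cyclins bind CDK4 or CDK6, and the active kinases phosphorylate the protein made by RB1. Unphosphorylated, that protein holds E2F factors, of which E2F1 is the founding member, and keeps genes of DNA replication off; once it is phosphorylated, E2F factors are released and S phase genes are transcribed. Inhibitors of the INK4 family (CDKN2C encodes p18, CDKN2D encodes p19) bind CDK4 and CDK6 alone, while those of the CIP/KIP family (CDKN1A encodes p21, CDKN1B encodes p27) also bind complexes of CDK2. In germinal centre B cells CCND3 is the D-type cyclin best known for sustaining division, and mutations that stabilise its protein recur in Burkitt lymphoma.

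A pair of promoters is shown, that of E2F1 because E2F factors are known to act on its own gene, and that of CDK4 because its transcript differed most between the GFP fractions at 24 h and E-boxes are the sites that MYC binds. Both are the 250 bases before the RefSeq start on GRCh38.p14, 5′ to 3′ on the gene's own strand. The E2F1 window is chr20:33686386-33686635 on the minus strand, with E2F letters in capitals. The CDK4 window is chr12:57752311-57752560 on the minus strand, with E-box letters in capitals.
E2F1: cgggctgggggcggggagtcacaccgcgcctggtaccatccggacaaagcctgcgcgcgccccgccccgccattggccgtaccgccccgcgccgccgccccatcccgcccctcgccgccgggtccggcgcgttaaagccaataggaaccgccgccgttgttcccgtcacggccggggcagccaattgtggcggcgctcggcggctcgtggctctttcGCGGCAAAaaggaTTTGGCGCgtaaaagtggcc
CDK4: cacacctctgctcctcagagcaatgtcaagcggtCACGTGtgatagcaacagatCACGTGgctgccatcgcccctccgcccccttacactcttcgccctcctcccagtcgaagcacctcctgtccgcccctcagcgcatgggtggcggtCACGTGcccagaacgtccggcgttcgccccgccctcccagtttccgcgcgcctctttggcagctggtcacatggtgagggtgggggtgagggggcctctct
The E2F1 window holds an E2F match 33 bases before the start (GCGGCAAA) and another 20 bases before it (TTTGGCGC). Searched letters were TTTCCCGC, TTTGGCGC, TTTCGCGC and TTTGCCGC on both strands, so GCGGCAAA is TTTGCCGC read on the other strand. Of 35116 RefSeq windows of that length 2.79% hold one of them, and E2F1 was the only 1 of the 9 members with a window to do so. CDK4 holds the E-box CACGTG 216, 196 and 101 bases before its start, and CDKN2C was the other member with one, against 6.34% of all windows. The GC box GGGCGG on either strand was found in 8 of the 9 members and in 42.6% of all windows, and CCAAT on either strand in 5 of the 9 and in 32%. Members with several RefSeq starts were counted once, with a match in any window enough. Shares of all windows count each window singly, so the measures differ. The windows of the members were also richer in GC, with a median of 67.6% against 58% over all windows. The shares were not matched for GC, so they do not show an excess of any of these letters in the members. The windows of CDK4, CDKN1A, CDKN1B, CCND3 and RB1 lie inside the gene spans given below. So do the CDKN2C windows chr1:50968456-50968705 and chr1:50969995-50970244 and the CDK6 window chr7:92833960-92834209, and that of CDKN2D lies partly inside. The RB1 window, chr13:48476200-48476449 at 36.8% GC, does not reach the start of the RB1 span, so the bases before that start were not searched. A match is a run of letters, not a site shown to be used.

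Library depth ran from 27257876 to 55419458 counts in genes, and levels are given as counts per 1000000 counts (CPM) after TMM scaling, or as CPM per kilobase of summed exon length where genes are compared with each other. Fold changes are log2 values, GFP low over GFP high unless said otherwise, ± SE, with adjusted p from edgeR's quasi-likelihood test (Benjamini-Hochberg over 16474 genes, threshold 0.05, n = 3 libraries a group). The column names give 3 library sets, called set 1, set 2 and the unnumbered set, with 1 library of each group in each set. The SMARCA4 transcript itself differed by 0.50 ± 0.03 at 24 h, 0.11 ± 0.03 at 48 h and 0.20 ± 0.03 at 72 h, higher in GFP low, which checks no label since a degron acts on the protein. The 7 B cell markers MS4A1, CD79A, CD79B, CD22, PAX5, EBF1 and MME were all present, summing to 2305 to 2710.1 CPM. The 7 markers of T cells summed to 35.9 to 38.0 CPM in GFP high against 20.2 to 22.3 in GFP low at 24 h. The sums were 33.0 to 33.8 against 29.4 to 34.1 at 48 h and 32.8 to 35.4 against 27.3 to 29.4 at 72 h. Of the 6 tested, 5, 1 and 5 passed as lower in GFP low, where 28.5%, 13.2% and 13.5% of all tested genes did. Myeloid and erythroid markers each stayed at 4 CPM or under in sum, with FCGR3A and HBA1 at 0. Epithelial, kidney and fibroblast markers summed to 7.31 to 7.92 CPM in GFP high against 12.8 to 15.5 CPM in GFP low at 24 h, and to at most 8.03 CPM later. Of the abundant noncoding RNAs that follow RNA quality, RN7SL1 differed by -0.80, 1.00 and 1.32 at the 3 times, NEAT1 by -0.18, -0.15 and 1.07 and MALAT1 by 0.40, -0.23 and 0.36, and RN7SK, RMRP and RPPH1 were at 0. Mitochondrial genes took 4.27% to 4.62% of counts in GFP high against 3.48% to 3.64% in GFP low at 24 h, while at 72 h the shares were 2.67% to 2.79% against 3.81% to 3.98%. The part of these differences in the results below was not tested.

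At 24 h the members were mostly lower in GFP low, at 48 and 72 h they were split. At 24 h 7 of the 9 tested members passed, 6 lower and 1 higher in GFP low, where 57.9% of all tested genes passed, 28.5% lower and 29.3% higher. The inhibitors CDKN1A, CDKN1B, CDKN2C and CDKN2D, the cyclin CCND3 and the kinase CDK4 were lower, and CDK6 was slightly higher. At 48 h 6 of 9 passed against 23.8% of all genes (10.6% higher, 13.2% lower): CDKN1B, CCND3 and CDK4 were higher and CDKN1A, CDKN2D and CDK6 lower. At 72 h 6 of 9 passed against 26.4% of all genes (12.9% higher, 13.5% lower), with CDKN1B and E2F1 higher and CDKN1A, CDKN2C, CDKN2D and CDK6 lower. The median log2 fold change over the 9 was -0.37, -0.02 and -0.06 at the 3 times, against 0.03, -0.01 and 0.00 over all genes. Without regard to sign it was 0.37, 0.15 and 0.16, against 0.31, 0.13 and 0.13. Members were chosen with earlier results of these data known, so their counts beside the shares of all genes are a description. Being bulk measurements, these values cannot tell fewer cells of a kind from less RNA per cell.

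**Figure D1:**
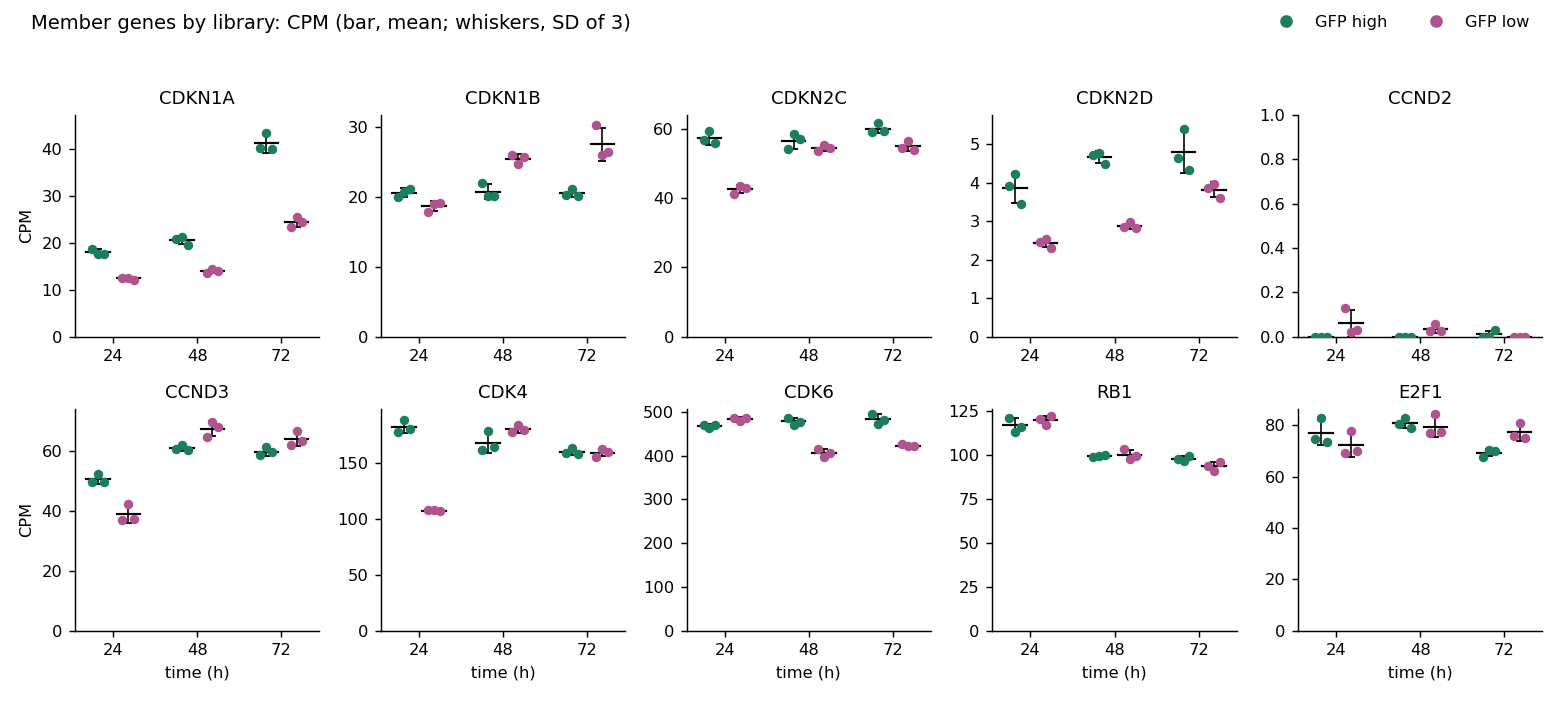
Level of each member in every library, in CPM (vertical axes start at 0), by time in hours, with GFP high in green and GFP low in purple; bars are means and whiskers the SD of 3 libraries. CDKN1A in GFP high goes from 19.6 to 21.2 CPM at 48 h to 40.0 to 43.6 at 72 h, CDK4 in GFP low stands at 107 to 108 CPM at 24 h and nowhere else, and CCND2 lies at or near 0.

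CDKN1A (ENSG00000124762.14, chr6:36676460-36687337, plus strand, hg38), which encodes the CIP/KIP inhibitor p21, was lower in GFP low at every time. At 24 h it stood at 18.8, 17.7 and 17.7 CPM in GFP high (set 1, set 2 and the unnumbered set) and at 12.6, 12.6 and 12.1 CPM in GFP low. The values at 48 h were 20.9, 21.2 and 19.6 CPM against 13.6, 14.5 and 14 CPM, and at 72 h 40.2, 43.6 and 40.0 CPM against 23.5, 25.5 and 24.6 CPM. The groups did not overlap at any time, and even the highest GFP low library at 48 h lay below the lowest GFP high library at 24 h. Fold changes on the log2 scale were -0.54 ± 0.05 (adjusted p = 1.35e-08), -0.55 ± 0.05 (4.52e-08) and -0.75 ± 0.05 (6.26e-11). Over time CDKN1A made the largest step of any member: from 48 to 72 h it rose 2.01-fold in GFP high (log2 1.00 ± 0.05, adjusted p = 1.03e-12) and 1.75-fold in GFP low (0.81 ± 0.05, 7.95e-11). The step from 24 to 48 h was smaller, 0.19 ± 0.05 in GFP high (0.00991) and 0.18 ± 0.05 in GFP low (0.00907); the latter was 0.05 (adjusted p = 0.442) with a trend of counts on gene length removed.

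CDKN1B (ENSG00000111276.12, chr12:12685498-12722369, plus strand), which encodes p27, went the other way at the later times. In GFP high it lay within a narrow range, with 19.9, 20.7 and 21.1 CPM at 24 h, 21.9, 20.1 and 20.1 CPM at 48 h and 20.2, 21.1 and 20.1 CPM at 72 h. In GFP low it stood at 17.8, 19.0 and 19.1 CPM at 24 h, 26.0, 24.7 and 25.6 CPM at 48 h and 30.2, 25.9 and 26.4 CPM at 72 h. Every GFP low library was below the GFP high libraries at 24 h and above them at 48 and 72 h. CDKN1B gave log2 fold changes of -0.14 ± 0.06 (adjusted p = 0.0367), 0.30 ± 0.05 (0.000266) and 0.42 ± 0.05 (5.26e-06). Within GFP low it rose by 0.45 ± 0.05 from 24 to 48 h (3.7e-07), while the same step in GFP high was 0.01 ± 0.06 (0.961). The call at 24 h was lost with DESeq2 (adjusted p = 0.0542) and without the GFP high library of set 2 (0.0792), that of the unnumbered set (0.131) or the GFP low library of set 1 (0.169), and the value was -0.30 (0.000136) with the length trend removed. Of the FOXO genes, whose products are known activators of CDKN1B, FOXO1 and FOXO3 were higher in GFP low at each time: FOXO1 by 0.53 ± 0.04, 0.50 ± 0.03 and 0.60 ± 0.04, and FOXO3 by 0.56 ± 0.03, 0.29 ± 0.03 and 0.21 ± 0.03. FOXO4 did not pass at any time, with 0.16 ± 0.08, -0.14 ± 0.08 and 0.19 ± 0.08 (adjusted p = 0.0941, 0.26 and 0.0936). The FOXO letters searched above were not found in the CDKN1B window, and a link between these genes and CDKN1B was not tested.

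The balance of the CIP/KIP pair differed between the fractions. Counts of CDKN1B per kilobase of exon came to 0.369 ± 0.0227 of those of CDKN1A in GFP high against 0.486 ± 0.0254 in GFP low at 24 h (SD, n = 3). At 48 h the ratio was 0.326 ± 0.0172 against 0.588 ± 0.0355, and at 72 h 0.161 ± 0.00351 against 0.364 ± 0.0464. Fractions did not overlap at any time, and the gap widened on the log2 scale from 0.40 to 0.85 and 1.17. The size of the ratio, but not the gap between fractions, depends on the length that counts are divided by. An alternative chosen after seeing the data was the length of the longest principal transcript. On that scale CDKN1B stood at 7.74 and CDKN1A at 7.98 CPM per kilobase in GFP high at 24 h, and at 7.01 and 5.48 in GFP low. The mean difference over the 3 times was 0.81 (exact permutation of GFP labels within each time, two-sided, p = 0.00025, the smallest that 8000 permutations allow; adjusted p = 0.000375 over 3 ratios). In an exact permutation test of 3 against 3 libraries no single time can go below p = 0.1, and each gave that value. Here and for the other ratios labels were permuted across library sets, so these p-values leave out the pairing by set described below. None of the 3 ratios was computed with the trend on gene length removed. With it removed the log2 fold change of CDKN1B at 24 h was -0.30 rather than -0.14. The change of the CDKN1A difference from 24 to 72 h was then -0.34 rather than -0.21. The part of that trend in the gap between fractions was not tested.

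CDKN2C (ENSG00000123080.12, chr1:50960745-50974634, plus strand), which encodes the INK4 inhibitor p18, was lower in GFP low at 24 h and nearly level afterwards. It stood at 56.7, 59.3 and 55.8 CPM in GFP high and at 41.3, 43.6 and 42.8 CPM in GFP low at 24 h, then at 54.1, 58.5 and 57.0 against 53.5, 55.4 and 54.6 CPM at 48 h and at 59.0, 61.6 and 59.5 against 54.5, 56.5 and 53.8 CPM at 72 h. The fractions overlapped at 48 h alone. Its log2 fold changes were -0.43 ± 0.04 (adjusted p = 8.7e-10), -0.05 ± 0.03 (0.29) and -0.13 ± 0.04 (0.00893). The call at 72 h was lost without the GFP high library of set 2 (0.0514) or the GFP low library of the unnumbered set (0.0531), and the value at 48 h passed with length and GC trends removed (-0.08, 0.0118) or with the length trend removed and the set as a block (-0.06, 0.0456). In GFP low it rose by 0.35 ± 0.04 from 24 to 48 h (2.09e-08), or by 0.23 with the length trend removed.

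CDKN2D (ENSG00000129355.7, chr19:10566460-10569059, minus strand), which encodes p19, was the lowest tested member in CPM, with 75 to 276 counts a library. At 24 h it had 3.90, 4.22 and 3.45 CPM in GFP high against 2.46, 2.53 and 2.31 in GFP low. The values were 4.72, 4.78 and 4.49 against 2.86, 2.97 and 2.82 CPM at 48 h, and 4.65, 5.39 and 4.34 against 3.87, 3.97 and 3.60 CPM at 72 h. GFP low lay below GFP high without overlap at each time, by -0.67 ± 0.11 (adjusted p = 1.39e-05), -0.69 ± 0.10 (2.84e-05) and -0.34 ± 0.10 (0.0169). With the length trend removed the value at 24 h was -0.41 (0.00281). The call at 72 h was lost with no filter on low counts (0.0995), in a fit of the compared groups alone (0.051), with DESeq2 (0.0545), without the GFP high library of set 2 (-0.23, 0.134) and without the GFP low library of the unnumbered set (-0.29, 0.0798). Its level in GFP low rose from 48 to 72 h by 0.40 ± 0.11 (0.00673), a call lost with no filter (0.39, 0.0518).

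Within the INK4 pair, CDKN2C exceeded CDKN2D per kilobase in every library. At 24 h the ratio was 7.43 ± 0.550 in GFP high against 8.74 ± 0.437 in GFP low, 6.05 ± 0.316 and 9.41 ± 0.193 at 48 h, and 6.29 ± 0.571 and 7.19 ± 0.228 at 72 h. It was higher in GFP low without overlap each time. The mean log2 difference was 0.36 (exact permutation within times, p = 0.00025, adjusted p = 0.000375), from 0.20 at 72 h to 0.64 at 48 h. This ratio too was not computed with the length trend removed. With it removed CDKN2D at 24 h gave -0.41 rather than -0.67. The change of the CDKN2C difference from 24 to 48 h was then 0.23 rather than 0.37.

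CCND2 (ENSG00000118971.9, chr12:4269771-4305353, plus strand), a D-type cyclin that B cells induce on antigen receptor signalling, was close to the limit of detection. It had 12 counts in the 18 libraries together. GFP low at 24 h held 4, 1 and 1 counts (set 1, set 2, unnumbered), GFP low at 48 h 1, 3 and 1, GFP high at 72 h 1 count in the unnumbered set, and the other libraries 0. A count of 0 allows up to 3 counts, or 0.0541 to 0.110 CPM depending on the library, for counting error only, and the library of set 1 in GFP low at 24 h was the only one above its own limit (0.131 against 0.105 CPM). In a fit with no filter the adjusted p was 0.0839 at 24 h, 0.312 at 48 h and 0.73 at 72 h, so no difference was detectable at this depth. CCND1, the remaining D-type cyclin and no member here, averaged 0.0159 to 0.103 CPM in the 6 groups.

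CCND3 (ENSG00000112576.13, chr6:41934934-42050357, minus strand) was the D-type cyclin with a measurable level. At 24 h it stood at 49.5, 52.1 and 49.6 CPM in GFP high and at 37.0, 42.2 and 37.2 CPM in GFP low. At 48 h the order was turned, 60.6, 61.9 and 60.1 CPM against 64.6, 69.5 and 67.8 CPM, and at 72 h it was 58.4, 61.1 and 59.4 CPM against 61.8, 66.5 and 63.2 CPM. All GFP low libraries lay below the GFP high ones at 24 h and above them later. CCND3 gave log2 fold changes of -0.37 ± 0.05 (adjusted p = 2.95e-07), 0.15 ± 0.04 (0.0145) and 0.10 ± 0.04 (0.0943). With the set as a block the value at 72 h passed (0.10, 0.00342), and at 48 h the call was lost without the GFP high library of set 1 (0.0504). From 24 to 48 h it rose 1.73-fold in GFP low (0.79 ± 0.04, 1.38e-12) and 1.21-fold in GFP high (0.27 ± 0.04, 0.000108), and neither fraction passed from 48 to 72 h. GFP high gave -0.03 ± 0.04 (adjusted p = 0.67) and GFP low -0.07 ± 0.04 (0.207), which passed with the set as a block (-0.08, 0.0228).

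CDK4 (ENSG00000135446.17, chr12:57747727-57756013, minus strand), the kinase whose promoter is printed above, differed most at 24 h of the 9 members. It stood at 178, 189 and 181 CPM in GFP high and at 108, 108 and 107 CPM in GFP low. At 48 h the values were 162, 179 and 165 CPM against 178, 184 and 180.0 CPM, and at 72 h 159, 164 and 158 CPM against 156, 163 and 160.2 CPM. The fractions were apart at 24 h and overlapped at both later times. The 3 log2 values were -0.76 ± 0.03 (adjusted p = 1.09e-14), 0.10 ± 0.03 (0.0291) and 0.00 ± 0.03 (0.949). The call at 48 h was lost without the GFP high library of set 1 (0.188), that of the unnumbered set (0.0771) or the GFP low library of set 2 (0.0596), and the value was 0.15 (0.000689) without the GFP high library of set 2. In GFP low CDK4 rose 1.68-fold from 24 to 48 h (0.75 ± 0.03, 2.61e-14) and then fell by 0.18 on the log2 scale to 72 h (0.000246). TSPAN31 on the opposite strand covers 44.25% of the exon bases of CDK4, and since the strand setting of the counting is not given, reads of the overlap cannot be assigned to one of them with certainty. Overlaps took 12.51% of the exon bases of CCND2, 4.873% of those of CDKN1A 0.6618% of those of CDK6 and 0.4166% of those of CCND3, and none in the other 5 members.

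CDK6 (ENSG00000105810.10, chr7:92604921-92836573, minus strand), the other partner of D-type cyclins, had the most counts of the members, 11430 to 24823 a library. It stood at 471, 464 and 469 CPM in GFP high and at 486, 479.8 and 487 CPM in GFP low at 24 h. At 48 h it was 487, 471 and 478 CPM against 415, 397 and 406 CPM, and at 72 h 495, 472 and 482 CPM against 426, 421 and 422 CPM. GFP low was thus a little higher at 24 h and lower afterwards, without overlap at any time. Its log2 fold changes came to 0.05 ± 0.02 (adjusted p = 0.047), -0.24 ± 0.02 (1.74e-08) and -0.19 ± 0.02 (3.73e-07). The sign at 24 h depended on the handling of gene length: it was -0.15 with the length trend removed (5.84e-06) and -0.09 with length and GC trends removed (1.38e-05), and the call was lost with DESeq2 (0.142), RLE size factors (0.0814), no filter (0.405), the compared groups alone (0.21) and in 4 of 6 fits that each left out 1 library. In GFP low CDK6 fell by 0.25 from 24 to 48 h (6.92e-10), or by 0.10 with the length trend removed, while in GFP high that step was 0.03 ± 0.02 (0.307).

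The ratio of CDK6 to CDK4 per kilobase turned over with time. At 24 h it came to 0.648 ± 0.0240 in GFP high against 1.14 ± 0.0119 in GFP low, 0.719 ± 0.0493 and 0.569 ± 0.0212 at 48 h, and 0.762 ± 0.0297 and 0.669 ± 0.0192 at 72 h. GFP low at 24 h was the only group in which CDK6 exceeded CDK4 on that scale, which counts every annotated exon. Per kilobase of the longest principal transcript, an alternative chosen after seeing the data, CDK4 stood at 51.9 and CDK6 at 41.7 CPM per kilobase there, and CDK6 exceeded CDK4 in none of the 6 groups. The level of CDK4 on either scale also carries the uncertainty of its overlap with TSPAN31 (44.25% of exon bases), whose part in the ratio was not tested. The log2 differences were 0.81, -0.34 and -0.19, their mean was 0.10, and the exact permutation test of that mean gave p = 0.519. At single times the groups did not overlap and the exact permutation p was 0.1, the smallest possible.

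**Figure D2:**
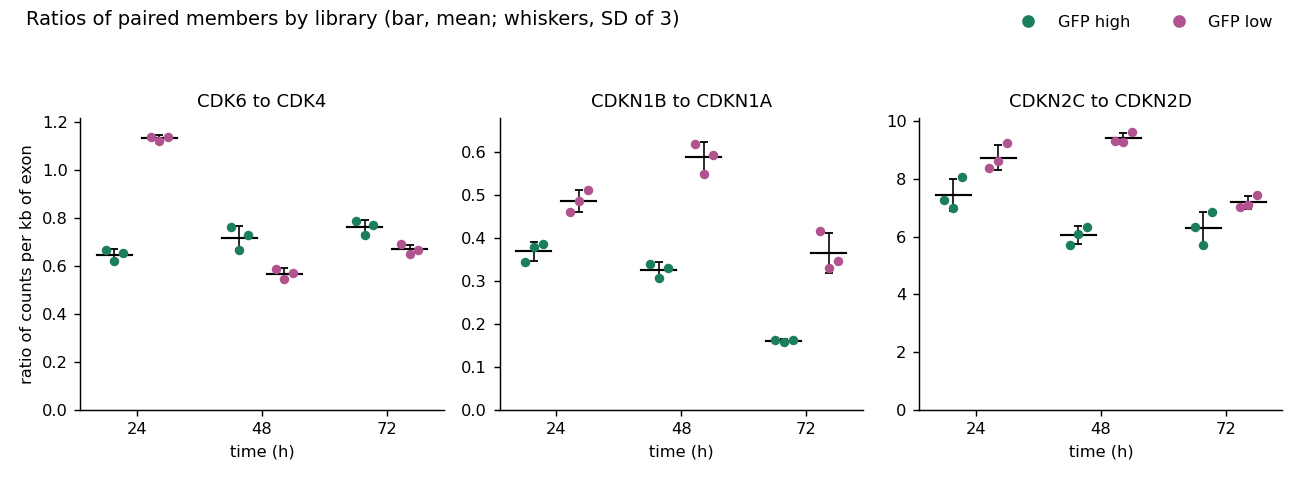
Ratio of counts per kilobase of exon for the 3 pairs of members in every library, by time in hours, with GFP high in green and GFP low in purple; bars are means and whiskers the SD of 3 libraries. GFP low lies above GFP high at all times for CDKN1B to CDKN1A and CDKN2C to CDKN2D, and for CDK6 to CDK4 it lies above at 24 h (1.12 to 1.14 against 0.621 to 0.668) and below later.

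RB1 (ENSG00000139687.16, chr13:48303744-48599436, plus strand), whose protein is the target of CDK4 and CDK6, did not pass between the fractions at any time. Its libraries ranged over 113 to 121 CPM in GFP high against 117 to 122 CPM in GFP low at 24 h, 98.7 to 100.1 and 97.8 to 103 CPM at 48 h, and 96.2 to 99.3 and 90.7 to 96.0 CPM at 72 h. The ranges overlapped at 24 and 48 h and were just apart at 72 h. RB1 gave log2 fold changes of 0.04, 0.01 and -0.06 (adjusted p = 0.298, 0.854 and 0.133), and with the set as a block the last was -0.07 (0.038). RB1 went down in both fractions over the first step: from 24 to 48 h it fell by 0.23 in GFP high (9.33e-06) and by 0.26 in GFP low (1.93e-07), and the change of the difference between fractions over that step was -0.03 ± 0.04 (0.656). From 48 to 72 h it fell by 0.10 in GFP low (0.0173; lost without the GFP low library of set 2 at 72 h, -0.09, 0.0542), and in GFP high the value was -0.03 ± 0.03 (0.585).

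E2F1 (ENSG00000101412.13, chr20:33675477-33686385, minus strand), whose promoter with its E2F letters is shown above, ranged from 67.6 to 84.3 CPM over the 18 libraries. At 24 h it had 74.8, 82.7 and 73.6 CPM in GFP high and 69.3, 77.6 and 69.8 CPM in GFP low, and at 48 h 80.5, 82.7 and 79.0 CPM against 76.8, 84.3 and 77.2 CPM. At 72 h it had 67.6, 70.4 and 70.0 CPM against 75.6, 81.0 and 75.0 CPM. The fractions overlapped at 24 and 48 h and were apart at 72 h, with GFP low higher. The test gave log2 values of -0.09 ± 0.05 (adjusted p = 0.106), -0.02 ± 0.05 (0.797) and 0.16 ± 0.05 (0.0212). The value at 72 h was 0.09 (0.0128) with length and GC trends removed, and its call was lost without the GFP high library of set 1 (0.0688) or the GFP low library of set 2 (0.12, 0.155). At 24 h E2F1 passed with the set as a block (-0.09, 0.00275) and with no filter (-0.11, 0.0132), and turned to 0.06 (0.0429) with the length trend removed and the block. From 48 to 72 h E2F1 fell by 0.22 in GFP high (0.00169), and in GFP low the value was -0.04 ± 0.05 (0.59).

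**Figure D3:**
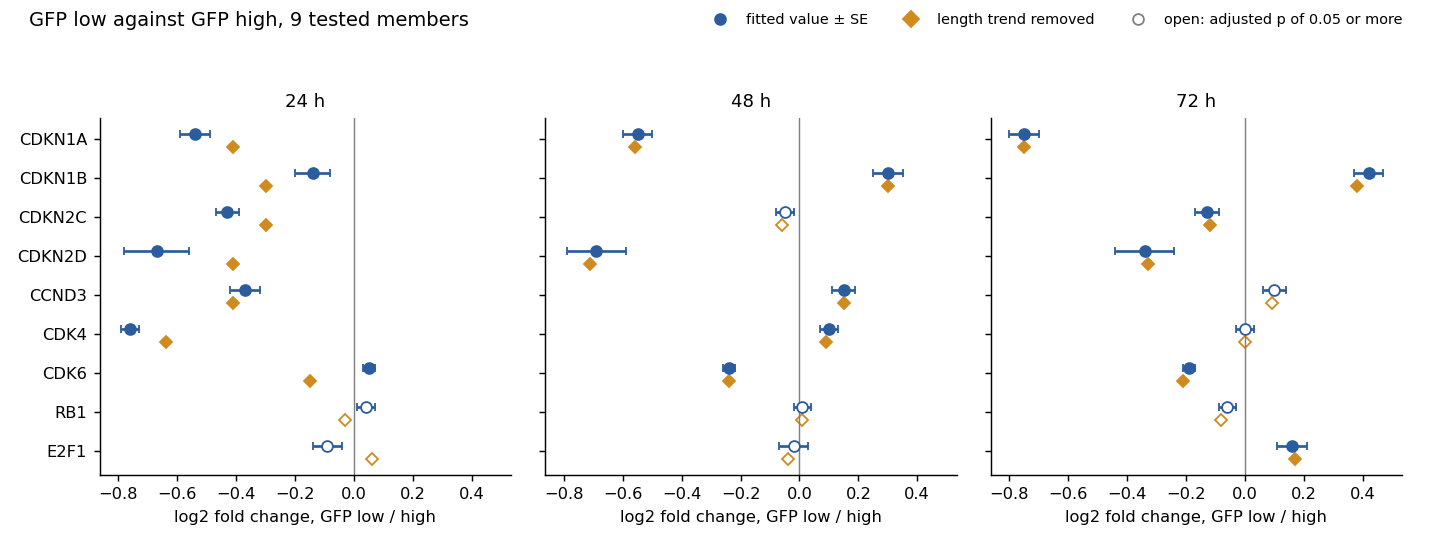
Log2 fold change of GFP low over GFP high for the 9 tested members at 24, 48 and 72 h; circles are fitted values with SE, diamonds the values with the trend on gene length removed, and open symbols have an adjusted p of 0.05 or more. CDKN1A stays at -0.54 to -0.75, CDK4 moves from -0.76 to 0.10 and 0.00, and CDKN1B from -0.14 to 0.30 and 0.42.

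Whether the difference between the fractions itself changed with time was tested as an interaction. From 24 to 48 h it changed for 5 of the 9 members, where 43.5% of all tested genes passed: for CDK4 by 0.86 ± 0.05 (adjusted p = 1.32e-12), CCND3 by 0.52 ± 0.06 (4.33e-07), CDKN1B by 0.44 ± 0.08 (7.32e-05), CDKN2C by 0.37 ± 0.05 (2.18e-06) and CDK6 by -0.29 ± 0.03 (4.29e-08). For CDKN1A the value was -0.01 ± 0.07 (0.909), or -0.16 (0.0468) with the length trend removed and the set as a block, and for CDKN2D -0.02 ± 0.15 (0.975), with an SE for the latter that leaves room for sizeable changes. From 48 to 72 h none of the 9 passed with edgeR, DESeq2 or RLE size factors, where 9.02% of all genes did; CDKN1A, CDKN2D, CDK4 and E2F1 had an unadjusted p under 0.05. With the set as a block CDKN1A (-0.20, 0.0098), CDK4 (-0.10, 0.0311), CDK6 (0.05, 0.00932) and E2F1 (0.18, 0.000592) passed, against 20.2% of all genes. Over the whole span from 24 to 72 h, a comparison added after seeing the data, the difference changed for 7 of 9 members, against 41.8% of all genes, with CDKN1B, CDKN2C, CCND3, CDK4 and E2F1 going up and CDKN1A and CDK6 down.

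The time steps within a fraction were uneven. In GFP low 8 of 9 members passed from 24 to 48 h, 6 higher and 2 lower, against 50.8% of all genes (25.7% higher, 25.1% lower). In GFP high 4 of 9 passed that step, 2 in each direction, against 20.6% (10.6% higher, 9.97% lower). From 48 to 72 h 5 of 9 passed in GFP low, against 26.4%, and 2 of 9 in GFP high, against 27.8%; in GFP high 4 passed with the set as a block, CDKN2C (0.09, 0.00617) and CDK4 (-0.08, 0.00154) being added, against 39.2% of all genes. The block also brought in CDKN2D from 24 to 48 h in GFP high (0.26, 0.0306; 0.0693 without it). These comparisons share libraries with those between the fractions. GFP high at 48 against 24 h brought CDKN1A and CCND3 up and CDK4 (fell by 0.11, 0.0136, groups overlapping) and RB1 down. The call of CDKN1A there was lost without the set 2 library of GFP high at 24 h (0.17, 0.051) or at 48 h (0.16, 0.0664), and its call for the same step in GFP low without the set 2 library of GFP low at 48 h (0.15, 0.0593). The call of CDK4 in GFP high was lost in a fit of the compared groups alone (0.0555) and without the GFP high library of set 2 at 24 h (0.0867), of set 1 at 48 h (0.0964) or of the unnumbered set at 48 h (0.051). In GFP low E2F1 passed at 0.14 ± 0.05 (0.0233) with overlapping groups, and its value was -0.02 (0.751) with the length trend removed. That call was also lost without the GFP low library of set 1 (0.10, 0.12) or of the unnumbered set (0.11, 0.106) at 24 h, or of set 2 at 48 h (0.08, 0.182). CDK6 passed from 48 to 72 h in GFP low at 0.06 ± 0.02 (0.0399), a call lost with DESeq2 (0.0603), RLE size factors (0.079) and in 5 of 6 fits without 1 library.

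Set in order of level per kilobase of summed exon, CDK4 came first with a median of 52.9 CPM per kilobase over the 18 libraries, before CDK6 (38.5), E2F1 (28.3), CDKN2C (18.4), RB1 (15.4), CCND3 (10.5), CDKN1A (6.41), CDKN2D (2.58), CDKN1B (2.26) and CCND2 (0). The range over libraries was 34.7 to 61.0 for CDK4 and 32.5 to 40.4 for CDK6, which overlap, so their order is not fixed in every library on this scale. Likewise CDKN2C ran from 13.7 to 20.4 and RB1 from 14.1 to 18.9, and CDKN2D from 1.54 to 3.58 and CDKN1B from 1.93 to 3.26. Summed exon length counts every annotated exon, including the exon bases that CDK4 shares with TSPAN31. With the length of the longest principal transcript, the same alternative as above, CDK4 (51.8 to 90.9) and CDK6 (34.2 to 42.6) did not overlap, CCND3 at 28.9 came above RB1 (20.7) and CDKN2C (19.1), and CDKN1B at 7.86 above CDKN2D at 2.73. CDKN1A varied most over the 18 libraries in CPM, 3.61-fold from lowest to highest, followed by CDKN2D (2.33-fold) and CCND3 (1.88-fold), while CDK6 and E2F1 each varied 1.25-fold.

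Another 53 genes of the same pathway, in 7 lists, show the setting of the members; 51 were tested. At 24 h 12 were higher and 29 lower in GFP low (median log2 fold change -0.17), at 48 h 7 and 6 (-0.01), and at 72 h 9 and 8 (-0.01). With the set as a block 21 passed at 48 h and 29 at 72 h, where 35.1% and 36.7% of all genes passed. The other counts rest on the same libraries and the same shares of all genes called as above.

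The partners of CDK2 behaved unlike each other. CCNE1, the cyclin E gene that acts with CDK2 at the G1/S boundary, was higher in GFP low at each time (0.20 ± 0.05, 0.24 ± 0.05 and 0.21 ± 0.05; adjusted p = 0.0022, 0.00122 and 0.00455). CCNE2 was lower at 24 h (-0.26 ± 0.04) and higher at 48 and 72 h (0.28 ± 0.04 and 0.12 ± 0.04). CCNA2, the cyclin A of S phase, was lower at each time (-0.84 ± 0.02, -0.14 ± 0.02 and -0.18 ± 0.02). CDK2 itself was lower at 24 h alone (-0.39 ± 0.03), with -0.03 ± 0.03 at both later times. CDC25A, the phosphatase that activates CDK2, was lower at 24 and 48 h (-0.35 ± 0.03 and -0.18 ± 0.03). Of the other inhibitors, CDKN2A (p16 and ARF) was lower at 24 h (-0.47 ± 0.04), CDKN2B did not pass, and CDKN1C was not tested.

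All 3 genes of the CDK-activating kinase, which phosphorylates CDK4, CDK6 and CDK2, were lower at 24 h: CCNH by -0.65 ± 0.04, MNAT1 by -0.45 ± 0.07 and CDK7 by -0.34 ± 0.06. At 48 h none of the 3 passed with edgeR (adjusted p 0.157 to 0.282; unadjusted p 0.0552 to 0.126), and at 72 h CCNH did (-0.13 ± 0.04). Among 8 genes that degrade cyclins and inhibitors, CKS1B, the cofactor with which SKP2 recognises p27, was lower by -0.97 ± 0.04 at 24 h, with SKP1 at -0.47 ± 0.03 and SKP2 at -0.33 ± 0.03, while CUL1 (0.09 ± 0.03) and AMBRA1 (0.15 ± 0.05), the substrate receptor for D-type cyclins, were higher. At 48 h 2 of the 8 passed, FBXW7 (-0.20 ± 0.03) and FBXO31 (-0.18 ± 0.06), and at 72 h SKP1 (-0.15 ± 0.03).

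Among the other 11 pocket protein, E2F and DP genes, 5 were higher and 2 lower at 24 h, 1 higher at 48 h, and 2 higher and 1 lower at 72 h. TFDP1, the main dimer partner of E2F factors, was lower at 24 and 72 h (-0.43 ± 0.02 and -0.10 ± 0.02), and TFDP2, its relative, was higher at each time (0.35 ± 0.03, 0.15 ± 0.03 and 0.20 ± 0.03). RBL2, a relative of RB1, was higher at 24 h (0.17 ± 0.03) and E2F5 lower (-0.33 ± 0.03). Of 16 E2F targets of S phase entry, 15 were lower and 1 did not pass at 24 h, led by PCNA, the DNA polymerase clamp (-0.89 ± 0.02), and RRM2, a ribonucleotide reductase subunit (-0.62 ± 0.02). At 48 h 1 was higher (TYMS, thymidylate synthase, 0.20 ± 0.03) and 2 lower (MCM4 by -0.07 ± 0.01 and MCM7 by -0.08 ± 0.02), and at 72 h TYMS was higher (0.13 ± 0.03) and 4 were lower, among them PCNA (-0.14 ± 0.02) and RRM1 (-0.11 ± 0.02). E2F1 itself did not pass at 24 or 48 h, as given above.

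Of 6 regulators upstream, 4 were higher and 1 lower at 24 h. At 48 h 3 were higher and at 72 h 4, and none passed as lower at either. MYC, which activates CDK4 and CCND2 and is driven by an immunoglobulin enhancer in Burkitt lymphoma, was higher in GFP low at each time (0.11 ± 0.04, 0.15 ± 0.04 and 0.24 ± 0.04; adjusted p = 0.0163, 0.00741 and 6.83e-05). BCL6, the germinal centre repressor that acts on CDKN1A, was higher at 24 h (0.14 ± 0.02) and 72 h (0.36 ± 0.02), with -0.05 ± 0.02 (0.0873) at 48 h. MDM2, a ubiquitin ligase, was lower at 24 h (-0.11 ± 0.02).

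**Figure D4:**
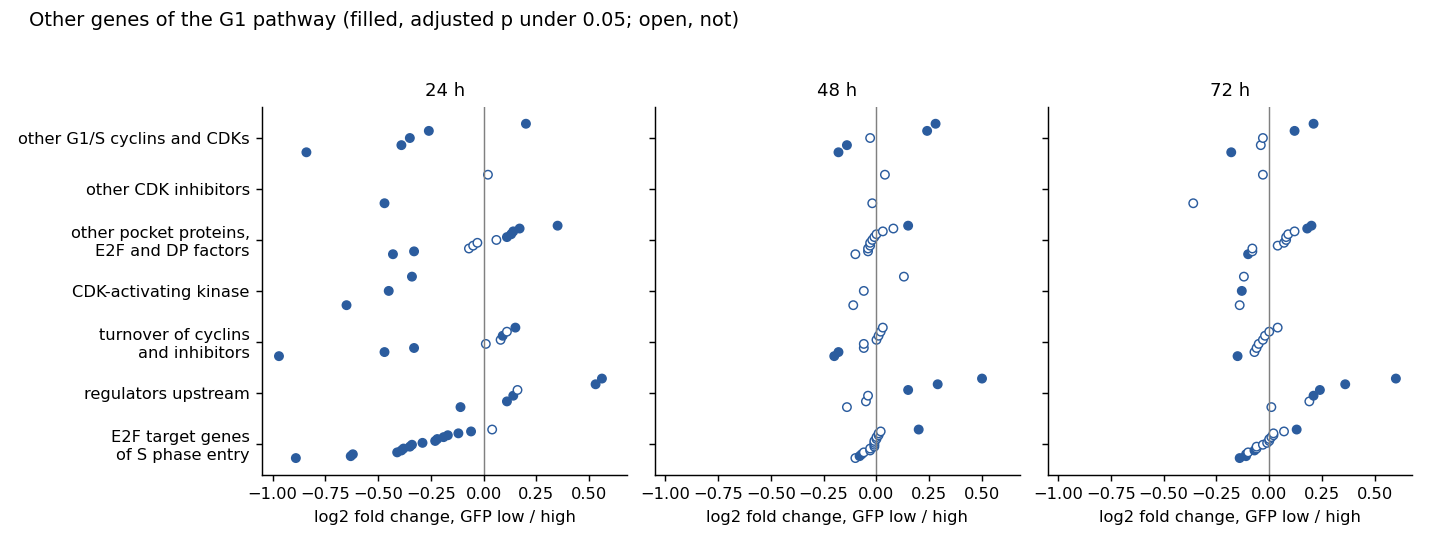
Log2 fold change of GFP low over GFP high for the 51 tested genes of the 7 lists of the G1 pathway at 24, 48 and 72 h, 1 point a gene; filled points have an adjusted p under 0.05. At 24 h 15 of the 16 E2F targets lie filled to the left of 0, and at 48 h most points lie within 0.25 of it.

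The genes whose levels ran most like a member's over the 18 libraries were named by Pearson's r of log2(CPM + 0.5), among genes of at least 10 CPM on average; the libraries share time, fraction and set, so r is a description. CDK4 ran most like RANBP1 (0.988), ALYREF (0.984) and NDUFS3 (0.98). CDKN2C ran most like PPM1G, PRMT1 (both 0.985) and PRDX2 (0.983), and CDKN1A like ELOVL6 (0.984), CHI3L2 (0.982) and SQLE (0.977). CDKN2D followed ST14 (0.97), CSRNP1 (0.966) and CD38 (0.957), and CCND3 followed NT5C2 (0.962), SEPHS1 (0.957) and AHCY (0.953). RB1 ran with PARP9 (0.96), CDK6 with TMOD2 and NFE2L3 (both 0.935), CDKN1B with FBXO7 and CAMK2D (both 0.925), and E2F1 with PTBP1 (0.911). No such partner is given for CCND2, whose counts are near 0.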

How the data were processed

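RNA sequencing counts of 18 Raji libraries were used, 3 in each of 6 groups of GFP level and time. Per the labels, total RNA (RNeasy Plus Micro) was made into libraries with KAPA RNA HyperPrep with RiboErase. The deposited values are whole-number counts per gene, not normalized. The submitters' processing notes name STAR, featureCounts of Subread, FastQC, the build hg38 and R 4.2.1; the sources used here do not state the annotation release, the strand setting or the rule for multi-mapping reads. ANK2, broken over 3 lines of the table, was left out.

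Column names give the group and the library set, not which sample of the group. Libraries of a set deviated together from their group means: r was 0.157 to 0.428 over 45 pairs of the same set, and 18 of 18 libraries correlated best with their own set. The median between sets was -0.149. Deviations from a group mean cancel within the group, so this negative value follows from the positive ones within sets. The sets therefore pair the libraries, and fits with the set as a block are alternatives. Libraries of 1 group differed by more than sampling noise. For pairs of them the median chi-square over genes was 1.45 to 3.1 times the median that sampling alone gives.

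In R 4.3.3, edgeR 4.0.16 was fitted to all genes that filterByExpr kept (minimum count 10), with TMM factors, 6 group means and 12 residual degrees of freedom, and tested on simulated data. The common coefficient of variation was 3.49%, so small differences pass. SE was taken as |log2 fold change| divided by the root of the F statistic. Alternatives were RLE size factors, no filter, the compared groups alone, the set as a block, trends on exon length or length and GC removed (natural splines with 4 inner knots), DESeq2 1.42.0 and leaving out each library. The change of the difference from 24 to 72 h was added after seeing the data. Ratios used counts per kilobase of exon and exact permutation tests; that of CCND2 to CCND3, also planned, was not computed because CCND2 has 0 counts in most libraries. Named pathway genes are up to 2 per list and direction with the smallest adjusted p, and MYC, CCNE1, CDK2 and CDKN2A; CDK7, SKP2, CDKN2B, CCND1 and CDKN1C, and further times of genes the rule names at 1 time, were named after their values were seen. Members and lists were chosen with earlier results of these data known. A few listed genes are not reported here and were left out of the list counts, sums and medians. Promoters are RefSeq windows on GRCh38.p14, of which the 250 bases before the start were used; 9 of 10 members were matched (not CCND2).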

Additional observations from a re-analysis of the deposited data

Results flagged for a closer look

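The difference between GFP low and GFP high was itself different at different times for 5 of the 9 tested members from 24 to 48 h, by an interaction term in edgeR's quasi-likelihood test in which 43.5% of all genes passed. It changed by 0.86 ± 0.05 for CDK4, 0.52 ± 0.06 for CCND3, 0.44 ± 0.08 for CDKN1B, 0.37 ± 0.05 for CDKN2C and -0.29 ± 0.03 for CDK6 on the log2 scale. With the trend on gene length removed CDKN2C gave 0.23 and CDK6 -0.09.

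From 24 to 72 h, a comparison added after seeing the data in which 41.8% of all tested genes passed, 7 of the 9 passed. In the main edgeR fit CDKN1A and E2F1 passed in no other change of the difference. With the set as a block both also passed from 48 to 72 h, as given above. The change was 0.76 ± 0.05 for CDK4 (adjusted p = 1.08e-11), 0.56 ± 0.08 for CDKN1B (4.55e-06), 0.47 ± 0.06 for CCND3 (1.95e-06), 0.30 ± 0.05 for CDKN2C (4.36e-05), 0.25 ± 0.07 for E2F1 (0.00561), -0.21 ± 0.07 for CDKN1A (0.0202) and -0.24 ± 0.03 for CDK6 (6.21e-07). With the length trend removed E2F1 gave 0.11 (0.187), CDK6 -0.06 (0.173), CDKN2C 0.17 (0.00254) and CDKN1A -0.34 (0.000384). The call of CDKN1A was lost with DESeq2 (0.063), with no filter (0.073) and without the set 2 library of GFP high at 24 h (0.0574), of GFP low at 24 h (0.0567) or of GFP high at 72 h (-0.15, 0.116), or without the set 1 library of GFP low at 72 h (0.0541). CDKN2D (0.34 ± 0.15, adjusted p = 0.0742) and RB1 (-0.10 ± 0.04, 0.0619) did not pass, and both did with the library set as a block (0.0475 and 0.0106). CDKN2D also passed without the GFP high library of the unnumbered set at 24 h (0.40, 0.0404) or of set 2 at 72 h (0.46, 0.0196), and RB1 without that of set 1 at 24 h (-0.13, 0.018) or the GFP low library of set 2 at 24 h (-0.12, 0.0498) or of the unnumbered set at 72 h (-0.12, 0.0376).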

How the results depend on the processing

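For 90 log2 fold changes (9 members, 10 comparisons), side of the threshold was compared, and direction only where either value passed. Of them 88 were unchanged with RLE size factors, 86 with the compared groups alone and 85 with DESeq2. The number was 83 with no filter, 83 with the length trend removed and 79 with length and GC trends removed. It was 77 with the replicate block and 70 with the length trend removed and the block. The replicate block (the library set) added 13 calls and ended none. Of these, the changes of difference from 24 to 72 h were -0.10 for RB1 (adjusted p = 0.0106) and 0.34 for CDKN2D (0.0475). Where either value passed, the sign turned for CDK6 at 24 h (-0.15 with the length trend removed, -0.15 with the replicate block too, -0.09 with length and GC trends removed). It also turned for E2F1 at 24 h (0.06, length trend and block) and for E2F1 in GFP low from 24 to 48 h (-0.02 with the length trend removed, with or without the block). The change of difference of E2F1 from 24 to 48 h turned as well (-0.09, length trend and block). Turns of sign between values that did not pass were not counted. Members passing from 48 to 72 h in GFP high went from 2 to 4 with the block, 5 with length trend and block and 4 with length and GC trends removed; in GFP low from 5 to 3 with no filter. For the change of difference from 48 to 72 h the count went from 0 to 1 with no filter, 4 with the block, 1 with the length trend removed, 5 with both and 3 with length and GC trends removed. The cause was not tested. Over all genes the block raised the calls from 3388 to 5394 (GFP high, 24 to 48 h) and from 1486 to 3331 (change from 48 to 72 h).

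Leaving out 1 library gave 5 to 7 members passing between the fractions at 24 h, 4 to 6 at 48 h and 4 to 6 at 72 h; 3 to 4 and 2 to 3 for the steps in GFP high, 6 to 8 and 3 to 5 for those in GFP low (3 without the GFP low library of set 2 at 72 h), and 5, 0 to 1 and 6 to 8 for the changes of difference from 24 to 48, 48 to 72 and 24 to 72 h. The single member of the second of these was CDK4 (-0.15, adjusted p = 0.0225) without the GFP high library and E2F1 (0.22, 0.0471) without the GFP low library of set 2 at 48 h. The mean log2 difference of the ratios ranged over 0.08 to 0.11 for CDK6 to CDK4, 0.77 to 0.83 for CDKN1B to CDKN1A and 0.33 to 0.38 for CDKN2C to CDKN2D. The ratios were not computed with the length trend removed. The block changed no other call than those named here and beside the results. Depth limits CCND2, with 12 counts in all, and CDKN2D, with 75 to 276 counts a library.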
